A study of Homo sapiens with 3 samples.

Results

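The genes described here build the contacts between epithelial cells: 36 genes of tight junctions, adherens junctions and desmosomes, chosen by name from general knowledge of these structures. They are 36 of the 21614 genes for which a probe of the arrays could be matched to a gene symbol. All 36 had a probe. HT29, a human colon adenocarcinoma line in long use, was grown on tissue culture polystyrene (TCP, the control), on chitosan membranes (CS) or on chitosan membranes grafted with hyaluronan (HA; CSHA). Chitosan is a cationic polysaccharide made from chitin, and hyaluronan is a polysaccharide of the extracellular matrix that binds the receptor CD44. RNA of each substrate was labelled with Cy3 and hybridised to 1 Agilent array, so there were 3 arrays with 1 per condition. The cell line was otherwise untreated in all conditions per the labels, and the culture time before RNA was taken for the arrays was not given in the sources used here. In the study's culture experiments HT29 attached to TCP with an epithelial shape and gathered into spheroids on both membranes.

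Epithelial cells are joined by junctions stacked along their sides. Tight junctions lie nearest to the lumen: claudins, occludin and related membrane proteins seal the space between cells or form ion-selective pores in it, and plaque proteins such as ZO-1 tie them to actin. Adherens junctions hold cells together through E-cadherin, which binds its partner on the next cell outside and β-catenin, α-catenin and p120-catenin inside. Desmosomes are spot welds in which desmosomal cadherins are linked by plakoglobin, plakophilins and plakins to keratin filaments. β-catenin is also the transcriptional effector of Wnt signaling.

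Since each condition had 1 array, differences were without any replicate check, no test was run and no p-value is given. A level is the log2 processed signal of a probe minus the 75th percentile of its array, and a difference is the difference of 2 such levels. It was called by size alone, at 2-fold (1 on the log2 scale), with 1.5-fold as the smaller size. The software of the scanner gave each signal an error, which came to 0.20 on the log2 scale for the difference of a typical junction gene. For probes printed 10 times, the SD over the spots had a median of 0.05 on TCP and CS, and 0.06 on CSHA. Neither covers the difference between cultures. A wider measure of error is how far probes of the same gene differ. Among 3500 genes with at least 2 probes well above background on every array, the differences given by the brightest probe and the next one lay apart by a median of 0.17 for CS against TCP and of 0.32 for CSHA against TCP. In 1 gene of 10 this gap passed 0.48 on CS and 0.999 on CSHA. Small differences below, on CSHA above all, are to be read against these gaps.

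The arrays carried the RNA of colon epithelium. Of 12 colon epithelial markers, all were well above background on CS and CSHA and 11 on TCP, where GPA33, a surface antigen of intestinal epithelium, was not. The others were EPCAM, KRT8, KRT18, KRT19, VIL1, CDX1, CDX2, CDH17, LGALS4, CEACAM5 and CEACAM6. CEACAM5 and CEACAM6, surface glycoproteins of colon epithelium, were higher on the membranes, by 1.57 and 1.07 on CS and by 2.16 and 1.86 on CSHA on the log2 scale, and GPA33 by bounds of 1.62 on CS and 2.01 on CSHA. These were the largest differences of the list. On CS 9 of its genes were higher and 3 lower, with a median of 0.31. On CSHA 10 were higher and 2 lower, with a median of 0.36. Those lower on CS were KRT18, KRT19 and CDX1, at -0.27, -0.22 and -0.04. LGALS4 and KRT18 were lower on CSHA, at -0.20 and -0.06. Of 9 stromal markers, SPARC and VIM were above background on TCP, none on CS and PDGFRB on CSHA (a bound of 1.98), and the processed signal summed over the list was between 58.3 on CS and 131 on CSHA, against 473715 to 535094 for the epithelial list. Of 6 endothelial markers, PECAM1, VWF, CDH5 and TEK were above background on every array, with a sum between 185 and 215. Of 7 immune markers 6 were named on the array, and 3 to 4 of them were above background, with a sum that went from 1137 on TCP to 1761 on CS and 1979 on CSHA, of which CD14 made the largest part. CD14 was 1.04 and CD68 1.01 higher on CSHA, PTPRC was above background on every array, and CD3E, not above background on CS, was lower there by a bound of -2.78 and at -1.75 on CSHA. COL1A1, COL1A2, COL3A1, DCN, LUM and THY1 were not well above background on any array. The part of these markers in the results below was not tested. HT29 was the only cell line seeded, so these lists do not count other cell types. In RNA from whole cultures, a difference in the share of cells that express a gene and in RNA per cell cannot be told apart. The signal at the 75th percentile came to 354 for TCP, 423 for CS and 337 for CSHA, and between 48.6% and 51.1% of the probes were well above background.

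Of the 36 junction genes, 34 were well above background on all arrays. DSC3, a desmosomal cadherin of stratified epithelia, was not well above background on any array, and PKP1, a plakophilin of stratified epithelia, was above it on CSHA only. On CS, 17 of 34 genes were higher and 17 lower than on TCP, with a median difference of 0.03, beside a median of 0.04 over all 14464 genes compared, of which 56.8% were higher. No junction gene reached 2-fold on CS, where 1.37% of all genes were higher and 1.92% lower by this size. At 1.5-fold, OCLN and CLDN23 were higher and PPL was lower, which is 5.88% and 2.94% of the junction genes, and the share over all genes was 4.12% higher and 5.03% lower. On CSHA, 26 of 35 junction genes were higher and 9 lower than on TCP, and the median was 0.24, beside 0.13 over all 14623 genes, of which 61.7% were higher. At 2-fold, CLDN23 and PKP1 were higher and PPL and TJP3 lower, 5.71% of the junction genes in each direction, against 3.02% of all genes higher and 3.98% lower. At 1.5-fold there were 6 higher (CLDN3, CLDN23, OCLN, MARVELD2, CDH1 and PKP1), or 17.1%, and 3 lower (CLDN2, TJP3 and PPL), or 8.57%, against 11.5% and 11.2% of all genes. These shares are near those of all genes, and the list as a whole is not set apart by them.

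Scaling the arrays to the spike-in probes, RNAs added in known amounts, moved the median of all genes on CSHA against TCP by 0.44, and differences on CSHA are to be read relative to the other genes. With it, 31 of the 35 junction genes were higher on CSHA and 4 were lower. The junction genes stood 0.11 above the median of all genes on CSHA with this scaling and 0.11 above it with quantile normalization.

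**Figure D1:**
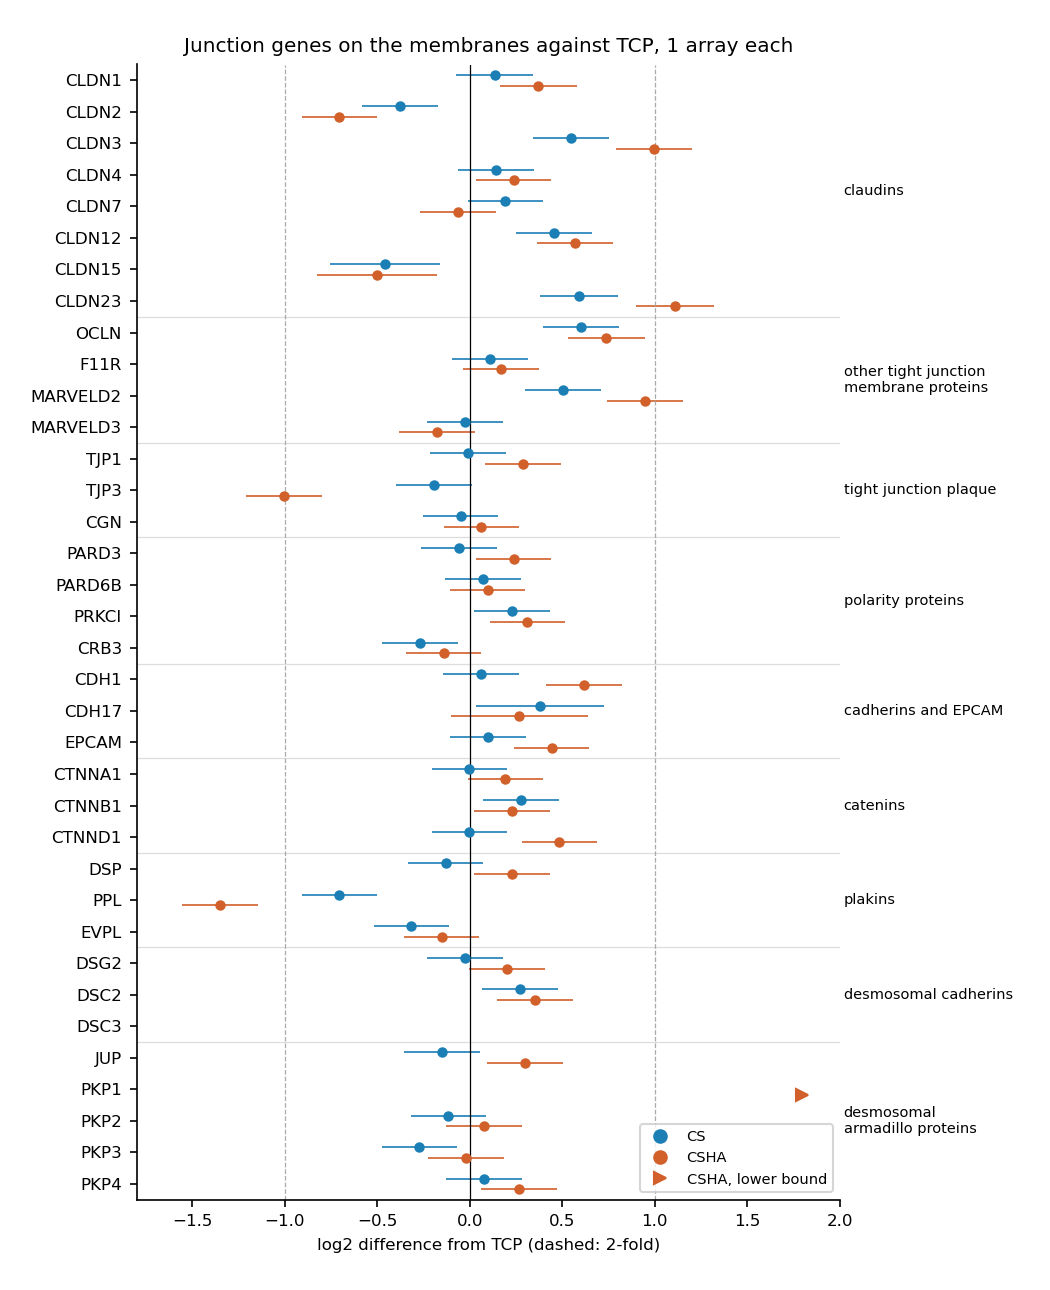
The log2 difference from TCP of each junction gene, by its role, on CS (blue) and CSHA (orange), 1 array per condition. Bars are the error that the scanner software gives for the difference, the triangle is the lower bound of PKP1, and DSC3 has no value. CLDN3, CLDN23, OCLN and MARVELD2 lie to the right of 0 on both membranes, PPL and CLDN2 lie to the left on both, and TJP3 is about 2-fold down on CSHA only.

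**Figure D2:**
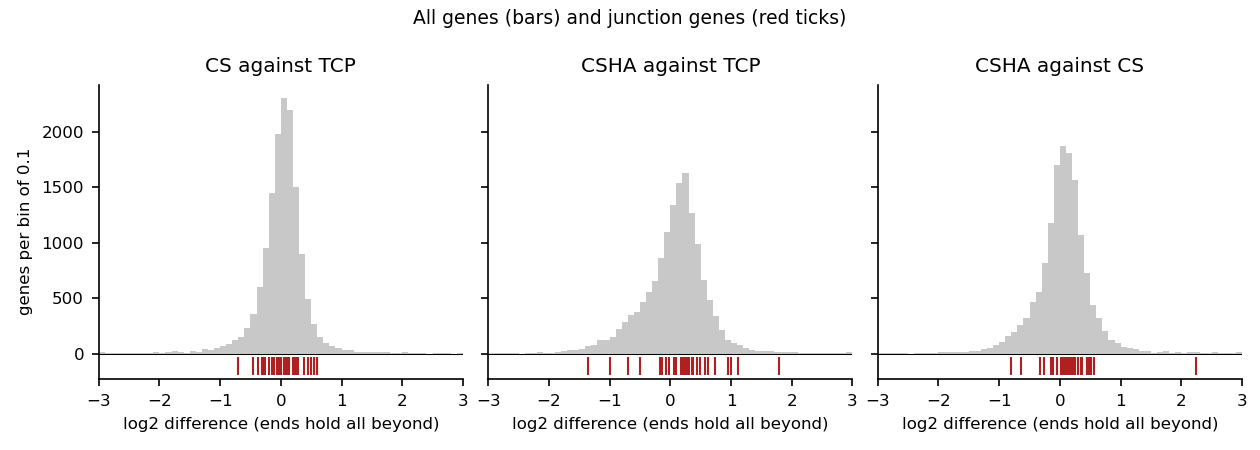
Number of genes per bin of 0.1 of the log2 difference in the 3 comparisons (bars; values past the ends are held in the end bins), with each junction gene as a red tick under the axis. The ticks cover the same span as the bulk of the genes, with PPL at -1.35 and PKP1 at 1.79 as the outermost for CSHA against TCP.

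Claudins, the 4-pass membrane proteins whose mix sets how leaky an epithelium is, differed in direction. On CS, 6 of 8 were higher than on TCP and 2 lower, with a median difference of 0.17. On CSHA, 5 were higher and 3 lower, with a median of 0.30. CLDN23 had a level of -1.37 on TCP, -0.78 on CS and -0.26 on CSHA. It is a claudin of differentiated colon epithelium, and its level was lowest on TCP and highest on CSHA: it differed from TCP by 0.59 on CS (1.51-fold) and 1.11 on CSHA (2.16-fold), each with an error of 0.21. On CSHA it was short of 2-fold with the deposited values, at 0.84, and with normexp background correction, at 0.81, and on CS these gave 0.42 and 0.44, under 1.5-fold. CLDN3, a sealing claudin, was at 5.96 on TCP, 6.51 on CS and 6.95 on CSHA. Its difference was 0.55 on CS and 0.99 on CSHA, 1.99-fold and so just short of the 2-fold size, with an error of 0.20. On CSHA it was past 2-fold with the deposited values, at 1.03, and with spike-in scaling, at 1.43. With centring on the median of detected probes it was past this size by a little. CLDN4, another sealing claudin and the neighbour of CLDN3 on chromosome 7 with 0 protein-coding genes between them, was at 7.49, 7.63 and 7.73. Its differences of 0.14 and 0.24 are about the size of the error, and smaller than those of CLDN3 next to it.

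CLDN2, which forms a cation- and water-permeable pore and marks crypt base cells in the normal intestine, had the opposite order: 3.25 on TCP, 2.87 on CS and 2.54 on CSHA. It was 1.30-fold lower on CS and 1.63-fold lower on CSHA, a difference of -0.70 with an error of 0.20, and spike-in scaling gave -0.27, under 1.5-fold. CLDN15, the other pore-forming claudin of the list, was dim, at -2.46, -2.92 and -2.96. Its differences of -0.46 on CS and -0.50 on CSHA had errors of 0.30 and 0.33. For CSHA the deposited values, which rest on the median signal of a spot, gave -0.19, and spike-in scaling gave -0.06.

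CLDN12 was at 1.26 on TCP, 1.71 on CS and 1.83 on CSHA, a difference of 0.57 on CSHA that lies just under 1.5-fold, and its other probe was higher as well, by 0.88 on CS and 0.46 on CSHA. CLDN1 was at -0.25, -0.11 and 0.12. CLDN7, a claudin of the basolateral side that binds EPCAM, was at 4.43, 4.63 and 4.37, so that it was higher on CS by 0.19 and at -0.06 on CSHA. The other probe of CLDN7, for the same transcript, gave 0.31 and 0.70, and the direction of CLDN7 on CSHA therefore depends on the probe.

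OCLN, which encodes occludin, and MARVELD2, which encodes tricellulin, the related protein of the points where 3 cells meet, are adjacent genes on chromosome 5 with 0 protein-coding genes between them, and both were higher on the membranes. OCLN was at -0.62 on TCP, -0.02 on CS and 0.12 on CSHA. Its level was lowest on TCP and close on the membranes, with differences of 0.60 on CS (1.52-fold) and 0.74 on CSHA (1.67-fold) and an error of 0.21. OCLN on CS was short of 1.5-fold with normexp, at 0.44, and with the deposited values, at 0.43. The other OCLN probe gave 0.54 and 0.80, a gap of less than 0.1 on each membrane. OCLN was the only gene measured on all arrays and past 1.5-fold whose difference could be read from another probe. MARVELD2 was at 0.46, 0.96 and 1.40, with differences of 0.50 on CS and 0.95 on CSHA (1.93-fold). MARVELD3, another protein of this family, was at 0.37, 0.34 and 0.19, with a difference of -0.18 on CSHA that its other probe gave as -0.08. F11R, which encodes the adhesion molecule JAM-A, was at 5.64, 5.75 and 5.81, and its other probe disagreed, at -0.45 on CS and -0.71 on CSHA.

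**Figure D3:**
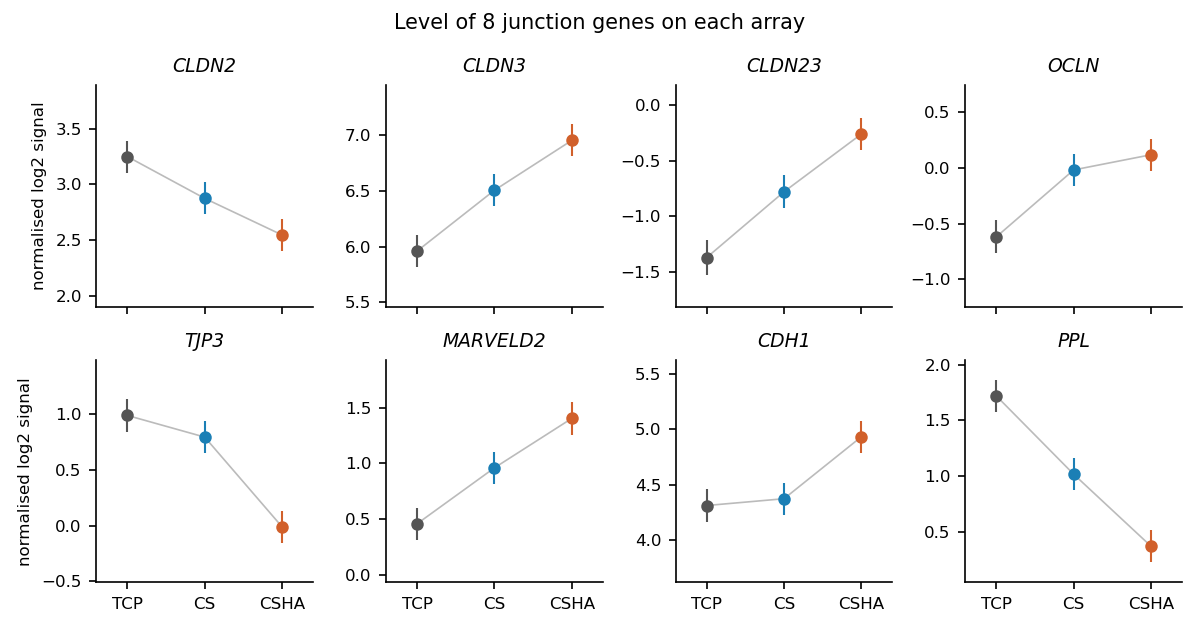
Normalised log2 signal on each array of the 8 junction genes that were well above background on all arrays and at least 1.5-fold apart in some comparison. Bars are the error that the scanner software gives for the array's signal, and each panel spans 2 log2 units around its own centre, so that heights compare within a gene and not between genes. CLDN3, CLDN23 and MARVELD2 step up from TCP to CS to CSHA, CLDN2 and PPL step down, OCLN is raised on both membranes, and CDH1 and TJP3 stand apart on CSHA only.

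Because OCLN and MARVELD2 lie side by side and had like differences, the 250 bases before their annotated starts are shown, with those of CLDN3. OCLN has another annotated start, whose overlapping window is not printed and also holds the E-box once, and CLDN23 is not shown. They are RefSeq sequences of the GRCh38.p14 assembly, read 5′ to 3′ on the strand of the gene. Capitals mark the E-box CACCTG or its reverse complement CAGGTG, to which the repressors of the SNAI and ZEB families bind.
OCLN, chr5:69492297-69492546, plus strand: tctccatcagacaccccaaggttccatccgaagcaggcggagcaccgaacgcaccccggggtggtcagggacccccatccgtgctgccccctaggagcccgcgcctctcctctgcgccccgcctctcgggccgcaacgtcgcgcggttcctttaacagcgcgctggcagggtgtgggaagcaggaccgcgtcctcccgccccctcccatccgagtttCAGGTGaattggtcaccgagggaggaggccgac
MARVELD2, chr5:69414866-69415115, plus strand: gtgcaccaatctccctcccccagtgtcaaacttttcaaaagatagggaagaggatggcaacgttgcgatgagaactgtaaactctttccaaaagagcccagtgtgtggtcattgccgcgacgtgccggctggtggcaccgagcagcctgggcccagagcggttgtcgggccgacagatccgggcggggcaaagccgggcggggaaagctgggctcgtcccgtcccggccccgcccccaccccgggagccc
CLDN3, chr7:73770271-73770520, minus strand: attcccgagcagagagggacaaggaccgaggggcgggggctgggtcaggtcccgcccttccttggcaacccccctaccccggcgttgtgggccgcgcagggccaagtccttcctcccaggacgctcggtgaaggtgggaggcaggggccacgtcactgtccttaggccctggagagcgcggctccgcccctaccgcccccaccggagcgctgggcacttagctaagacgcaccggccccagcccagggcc

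Such windows were at hand for 23 of the 36 junction genes, 36 windows in all since some genes have several starts. The E-box was found in 10 of the 36 windows, or 27.8%, beside 17.5% of all 35116 promoter windows. The genes with it were CLDN7, CRB3, DSC2, DSG2, DSP, JUP, OCLN, TJP1 and TJP3. They include OCLN, which was higher on both membranes, and TJP3, which was 2.00-fold lower on CSHA. The TCF/LEF letters CTTTGAT, on either strand, stood in 2 windows, both of CTNNA1 and overlapping, and in 2.26% of all windows. The letters TTTATG of a CDX site and AACCGGTT of a GRHL site were in 0 of the junction gene windows, and in 9.64% and 0.117% of all windows. A match is a description of the letters and not a site that was shown to be bound.

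Of the 3 plaque proteins of tight junctions, all were lower on CS, with a median of -0.05 (0.0047 with spike-in scaling, where 2 were higher), and 2 were higher on CSHA. TJP3, which encodes ZO-3, was at 0.99 on TCP, 0.80 on CS and -0.01 on CSHA. It was low on CSHA only, with a difference of -1.001 from TCP and of -0.81 from CS and an error of 0.20. Its size on CSHA is at the edge of 2-fold, and the deposited values gave -0.92 and spike-in scaling -0.56, both short of it. TJP1, which encodes ZO-1, the scaffold that the membrane proteins bind, was at 2.96, 2.95 and 3.24. The differences of -0.01 on CS and 0.29 on CSHA were within the gap between probes of a gene. CGN, cingulin, was at 4.09, 4.04 and 4.15, and so within the error on every array.

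Genes of apical polarity complexes differed little between substrates. PRKCI, the atypical protein kinase C of the Par complex, was at 3.05, 3.28 and 3.36, with differences of 0.23 on CS and 0.31 on CSHA. PARD6B, its adaptor, was at 1.64, 1.71 and 1.74. PARD3, the scaffold of that complex, was at 3.45, 3.39 and 3.68, and the difference of 0.24 on CSHA was not borne out by its other probe, at -0.45. CRB3, the crumbs protein of epithelia, was at 2.30, 2.03 and 2.15. None of these 4 genes reached 1.5-fold in any comparison.

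By their brightest probes, all 6 adherens junction genes, with EPCAM and CDH17 counted among them, were higher on CSHA than on TCP. Their median difference was 0.36, beside 0.13 over all genes, of which 61.7% were higher. Averaging the probes of a gene put CTNNA1 at -0.43. On CS 4 were higher and 2 lower, with a median of 0.08, beside 0.04 over all genes. CDH1, which encodes E-cadherin, was at 4.31 on TCP, 4.38 on CS and 4.93 on CSHA. It was 1.53-fold higher on CSHA than on TCP and 1.47-fold higher than on CS, while CS and TCP differed by 0.06. The probe of CDH1 was printed 10 times, and the spots lay between 4.16 and 4.40 for TCP, 4.17 and 4.52 for CS, and 4.76 and 5.01 for CSHA. Every CSHA spot thus lay above every spot of the other arrays, and the spots of TCP and CS overlapped. The spots are repeats of 1 hybridisation and not of cultures. How many of the other probes printed 10 times had spots apart in this way was not counted.

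CTNNB1, which encodes β-catenin, was also printed 10 times and had the other order. Its level was 3.69 ± 0.04 on TCP (SD, n = 10 spots), 3.96 ± 0.04 on CS (SD, n = 10 spots) and 3.91 ± 0.04 on CSHA (SD, n = 9 spots, after 1 flagged spot was left out). The spots on TCP, from 3.57 to 3.72, lay below all kept spots on CS and CSHA, and those of CS and CSHA overlapped. The flagged CSHA spot, at 3.58, lay within the range of TCP. The differences from TCP were 0.28 on CS (1.21-fold) and 0.23 on CSHA (1.17-fold). Of all genes measured on both arrays, 50.7% differed by more than 0.17 on CS and 45.8% by more than 0.32 on CSHA. CTNNB1 itself was past 0.17 on CS and short of 0.32 on CSHA. These shares do not tell how often the spots of a probe lie apart, which was not counted. A dimmer probe for another CTNNB1 transcript gave 0.06 on CS and -0.13 on CSHA, so that the higher value on CSHA rests on the brighter probe.

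**Figure D4:**
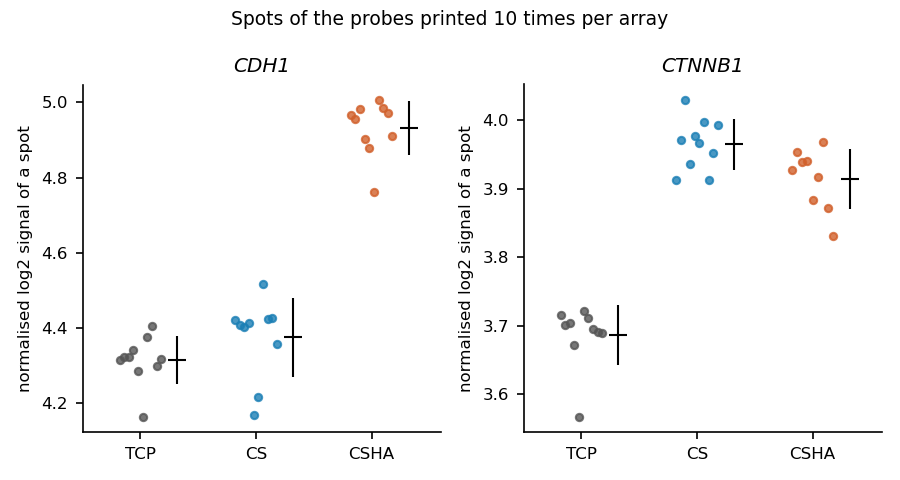
Normalised log2 signal of each spot of the CDH1 and CTNNB1 probes, which were printed 10 times per array, with the mean and SD over spots beside them; spots flagged as outliers are left out. The CDH1 spots of CSHA stand above those of TCP and CS, which overlap, and the CTNNB1 spots of TCP stand below those of both membranes.

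CTNND1, which encodes p120-catenin, the catenin that keeps E-cadherin at the membrane, was at 2.58 on TCP, 2.58 on CS and 3.06 on CSHA. Its level was the same on TCP and CS to 2 decimals and 0.48 higher on CSHA, while its dimmer probe gave 0.32 on CS and 0.68 on CSHA. CTNNA1, which encodes α-catenin, was at 4.89, 4.89 and 5.08, and its other probe gave -0.31 on CS and -1.06 on CSHA. EPCAM, an adhesion protein of epithelial cells, was at 6.90, 7.003 and 7.35. It was within the error on CS, at 0.10, and 0.44 higher on CSHA (1.36-fold). CDH17, the cadherin of intestinal epithelium, was near the limit of detection, at -3.42, -3.04 and -3.16, and its differences of 0.38 and 0.27 had errors of 0.35 and 0.37.

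On CS, 2 of the 9 desmosome and plakin genes with a value were higher than on TCP and 7 lower, with a median of -0.13, beside 56.8% of all genes higher. On CSHA 7 of 10 were higher, with a median of 0.22, beside 61.7% of all genes. DSP, DSG2, JUP and PKP2 were within the error of 0.20 on CS. The 3 genes lower on CSHA were PPL, EVPL and PKP3, of which PKP3 was at -0.02. With spike-in scaling PKP3 was at 0.41 and EVPL at 0.28. PPL, which encodes periplakin, a plakin that links junctions and membrane to keratins, had the largest difference among the junction genes measured on all arrays. It was at 1.72 on TCP, 1.01 on CS and 0.37 on CSHA, a step down at each membrane. The differences from TCP were -0.70 on CS (1.63-fold lower) and -1.35 on CSHA (2.55-fold lower), each with an error of 0.20, and CSHA was at -0.65 from CS. On CSHA the difference ran from -1.41 to -0.91 over the alternatives to the processing, and it was under 2-fold with spike-in scaling, which gave the smallest size. PPL has 1 probe. EVPL, which encodes envoplakin, the partner of periplakin, was at 2.63, 2.31 and 2.47, with differences of -0.32 and -0.15. DSP, which encodes desmoplakin, the plakin that every desmosome needs, was at 3.73, 3.60 and 3.96, and both of its probes gave a difference of the same sign on each membrane.

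Among the desmosomal cadherins, DSG2, the desmoglein of simple epithelia, was at 0.58, 0.55 and 0.78, and DSC2, the desmocollin that pairs with it, at 0.05, 0.32 and 0.40. The difference of DSC2 was 0.27 on CS and 0.35 on CSHA, and neither cadherin reached 1.5-fold. Of the proteins that link them to the plakins, JUP, plakoglobin, was at 4.72, 4.57 and 5.02. It was at -0.15 on CS and 0.30 on CSHA from TCP, and CSHA was 1.36-fold above CS. PKP2 was at 2.51, 2.397 and 2.59, and PKP3 at 5.80, 5.53 and 5.78, so that both plakophilins of simple epithelia stayed within 0.3 of TCP. PKP4 was at 1.85, 1.92 and 2.11, and of its other probes 1 was at -0.79 on CSHA.

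On TCP and CS the PKP1 probe did not stand well above background, with a processed signal of 6.03 and 14.2, and stood at 79.6 on CSHA. Its level was at least 3.47-fold higher on CSHA than on TCP and at least 4.72-fold higher than on CS, a bound set against the lowest signal well above background on the array compared. The other PKP1 probe, for the same accession, was not above background on any array, with a level of -5.01 on CSHA, and with the mean over the probes the bound against TCP was 0.33. The bound on PKP1 thus rests on 1 spot of 1 array.

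**Figure D5:**
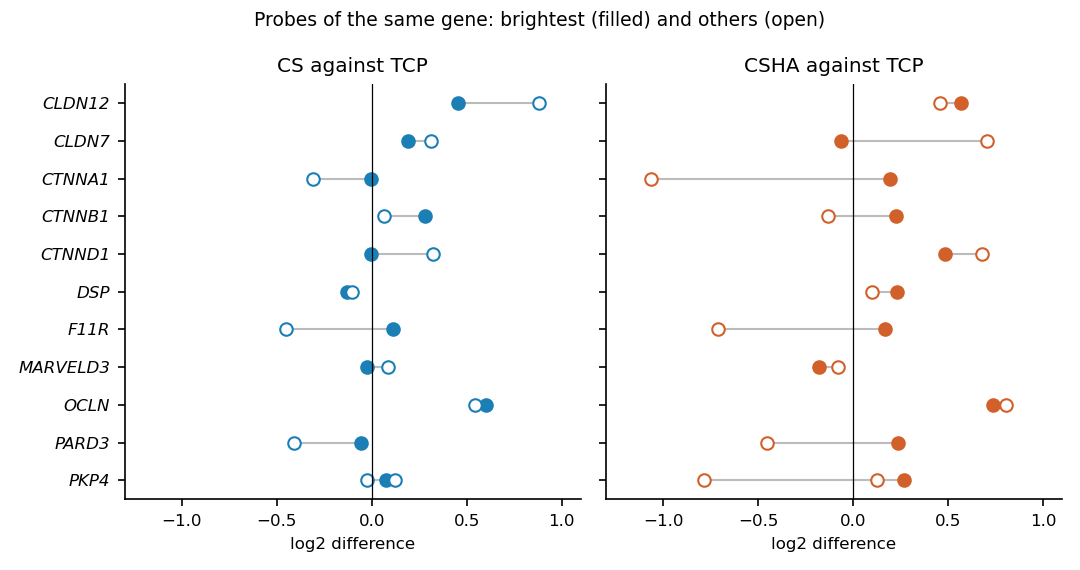
The log2 difference from TCP given by each probe of the 11 junction genes with at least 2 probes well above background on all arrays, for CS and for CSHA. Filled points are the brightest probe, which stands for the gene elsewhere, and open points are the others. The probes of OCLN, DSP and MARVELD3 lie close together, and those of CTNNA1, CTNNB1, F11R, PARD3, PKP4 and CLDN7 lie on both sides of 0 on CSHA.

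Where a junction gene had more than 1 probe above background on all arrays, the brightest probe and the next one had the same sign in 8 of 11 genes on CS and in 5 of 11 on CSHA. Over all genes this was so for 65.9% and 60.4%. On CSHA the median gap between these probes was 0.36 for the 11 junction genes and 0.32 for all genes. The differences of CLDN3, CLDN23, MARVELD2, OCLN and PPL on CS passed the gap that 1 gene in 10 exceeds, 0.48, and 9.82% of all genes did. On CSHA those of CLDN23, PPL and TJP3 passed the corresponding gap of 0.999, and 5.32% of all genes did. Except for OCLN, the genes named here have 1 probe each.

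Set directly against each other, CSHA was higher than CS in 27 of 35 junction genes and lower in 8, with a median difference of 0.16 beside 0.07 over all 14599 genes. Of all these genes, 58.5% were higher on CSHA. Only PKP1, as a bound, was at least 2-fold apart, against 2.27% of all genes higher and 2.15% lower. At 1.5-fold PKP1 was again the only gene higher, or 2.86%, against 7.68% of all genes, and TJP3 and PPL were lower, or 5.71%, against 7.33%. The next largest differences were those of CDH1 at 0.56, CLDN23 at 0.52 and CTNND1 at 0.49. With spike-in scaling CLDN2 was at 0.05 on CSHA against CS, where it otherwise was at -0.33.

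Other genes of the same structures, listed by hand, held few large differences. Of 14 other claudins 11 were not well above background on any array, and none of those compared was past 1.5-fold. Of 22 other tight junction genes, 14 were compared on CS and 15 on CSHA, with none past 2-fold. On CS 3 were higher and 11 lower, with a median of -0.14. On CSHA 7 were higher and 8 lower, with a median of -0.04. The largest difference among those measured on all arrays was that of ILDR1, an angulin of tricellular contacts that recruits tricellulin, at -0.93 on CS and -0.86 on CSHA. The other ILDR1 probe was not well above background on any array. Of 14 other polarity genes, CRB2 alone was past 2-fold, lower on CS by a bound of -1.49. Of 20 other adherens junction genes, NECTIN4, a cell adhesion molecule of the immunoglobulin family, was at 0.89 on TCP, 1.58 on CS and 2.31 on CSHA. It stood 0.69 above TCP on CS and 1.42 on CSHA, and its level had the same order as those of CLDN23 and MARVELD2. CTNNA3, an α-catenin of heart muscle, was above background on CS only, with a bound of 2.77 there, and its other probe was not above background on any array. Of 10 other desmosome and keratin genes, 6 were not above background, and KRT20, the keratin of differentiated colon cells, was at 0.24 on CS and 0.90 on CSHA.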

How the data were processed

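RNA of HT29 cells was measured on 3 one-colour Agilent arrays on 1 slide, 1 per condition. The deposited scanner files give an intensity per spot from Feature Extraction 10.7.3.1, per the file headers, whereas the methods name another version. The authors also deposited log2 values, which equal the log2 median signal minus its 75th percentile, centred per spot (column medians 0.013 on TCP, -0.13 on CS and 0.043 on CSHA).

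Processed signals under 1 were set to 1, following the methods, and put on a log2 scale. Controls and outlier spots were dropped, repeated spots were averaged, and each array's 75th percentile was subtracted. By accession, 30004 of 50599 probes got a symbol through RefSeq (GRCh38.p14, for names), and the brightest probe stood for each gene. Genes entered a comparison if either array measured them well above background, as a bound if only 1 did. With 1 array per condition no test was possible, and the number of arrays limits the precision. The calculation was tested on simulated data.

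The 36 genes and the other lists were written by hand with earlier results of these data known. All 36 are named. From the other lists the genes past 2-fold are named, and of the marker lists those above background. Further genes of these lists were chosen after their values were seen. In all, 9 alternatives were computed, and thresholds of 1.5-fold and 3-fold were tried. Python 3.11.15 (pandas 2.3.3, numpy 2.4.6) was used, with limma 3.58.1 in R 4.3.3 for normexp.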

Additional observations from a re-analysis of the deposited data

How the results depend on the processing

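All differences are between single arrays, and the array's brightness limits CDH17, CLDN15 and PKP1 most. No paired analysis was possible because each condition has 1 array and the labels carry no replicate numbers. Of 934 values of single junction genes under the 9 alternatives, 848 moved by no more than the error of the scanner software and 86 moved further. The sign changed in 44, none of them of a gene past 2-fold, and the largest difference among these was 0.33 in size. The medians of the junction genes moved beyond the spread among spots only with scaling to the spike-in probes, which gave 0.67 for CSHA against TCP and 0.55 for CSHA against CS. The other moves were in counts of few genes. At least 2-fold higher on CSHA than on TCP were 7 genes with spike-in scaling, 1 with only genes detected on all arrays, 1 with the mean over the probes of a gene, 6 at a threshold of 1.5-fold and 1 at 3-fold. With centring on the median of detected probes CLDN3 was past 2-fold by a little and joined the count. Spike-in scaling moved the median of all genes in this comparison by 0.44. Shares of all genes called under the alternatives to the processing are not given, so these counts are no result about junction genes. At least 2-fold lower on CSHA than on TCP there was 1 gene with normexp background correction, 1 with centring on the median of detected probes and 1 with the deposited values, and there were 0 with spike-in scaling and 0 at 3-fold. CLDN23 was short of 2-fold higher on CSHA with normexp, at 0.81, and with the deposited values, at 0.84, where CLDN3 took its place in the count. TJP3 was short of the threshold in each of these, and PPL also with spike-in scaling and at 3-fold. Leaving out a replicate was not possible with 1 array per condition. On CSHA against CS, 0 genes were at least 2-fold higher with only genes detected on all arrays and 0 with the mean over probes, and 2 were lower at 1.5-fold. On CS against TCP, 2 were higher and 1 lower at 1.5-fold.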

Other observations

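Genes that set the epithelial state of a cell, listed by hand, were well above background on all arrays, 14 of 14. On CS 12 of them were higher than on TCP and 2 lower, with a median log2 difference of 0.17, and on CSHA 13 were higher and 1 lower, with a median of 0.34, beside 0.04 and 0.13 over all genes. GRHL3, a grainyhead factor of epithelial barriers, was at -0.28 on TCP, 0.20 on CS and 0.996 on CSHA, a difference of 1.28 on CSHA. The other GRHL3 probe was not well above background on any array. GRHL2, a relative of GRHL3 that controls junction genes in many epithelia, was at 0.22 on CS and 0.44 on CSHA. HNF4A was dim and was at -0.06 on CS and 1.01 on CSHA. KLF4, a factor of differentiated colon cells, was 0.98 higher on CS and 0.43 on CSHA, and CDX2, the intestinal homeobox factor, was 0.92 and 0.88 higher. KLF5, a factor of crypt cells, was at 0.17 and 0.85.

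Of 8 factors of the epithelial-mesenchymal transition, 4 were not well above background on any array and 2 were above it on all. SNAI1, a repressor of CDH1, was at 0.76 on TCP, 0.47 on CS and 0.54 on CSHA. TCF4, a basic helix-loop-helix factor, was dim and lay just short of 2-fold lower on CS, at -0.9996, and at -0.50 on CSHA. TWIST2 and ZEB1 were above background on CSHA only, with bounds of 0.67 and 0.39, each by 1 probe, and their other probes were not above background on any array.

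Of 8 gap junction genes, GJA1, the connexin of many cell types, was above background on CSHA only, with a bound of 1.29. GJB1, a connexin of liver and gut epithelium, differed from TCP by 0.59 on CS and 0.51 on CSHA. Of 10 proteases and inhibitors that act on junction proteins, PRSS8, the membrane protease prostasin, lay at -0.05 for CS and 0.65 for CSHA, and KLK6, a secreted kallikrein, at -0.56 and -0.64, with its other probe at -0.86 and -1.92. None of the 10 was past 2-fold on either membrane by its brightest probe.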
